A study of Mus musculus with 6 samples.

Results

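Enzyme secretion by the acinar cell of the pancreas starts at receptors for hormones and nerve transmitters on its basolateral membrane. Cholecystokinin and acetylcholine raise cytosolic calcium through phospholipase C and inositol trisphosphate receptors, and secretin raises cyclic AMP. The rise in calcium lets zymogen granules, held near the apical membrane by Rab proteins, fuse with it through SNARE proteins, of which one kind sits on the granule (the VAMPs) and the others on the target membrane (syntaxins and SNAP proteins). The 10 genes followed from this route were the receptor genes Cckar, Chrm3 and Sctr, the calcium release channel gene Itpr3, and the fusion genes Vamp8, Vamp2, Rab3d, Stx3, Snap23 and Stxbp2.

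Each gene was read through all probe sets that the platform annotation assigns to it alone. Probe sets assigned to several genes were not used. These were 12 of the 12488 probe sets of the array, for 7 of the 10 genes. The annotation used here assigned no probe set solely to Chrm3 (the M3 muscarinic acetylcholine receptor), Sctr (the secretin receptor) or Itpr3, and these 3 genes are not analysed here. The acinar receptor side of the route therefore rests on Cckar alone.

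Pancreas RNA of single mice was hybridised to 6 Affymetrix MG-U74Av2 arrays, which give 1 intensity per probe set. The comparison was of CFTR-/- with CFTR+/+ animals, named for the chloride and bicarbonate channel gene Cftr. The 3 control mice were CFTR+/+ and aged 57, 56 and 57 days; the 3 mice called CF here were CFTR-/- and aged 57, 56 and 58 days. All 6 were males and gastrin+/-, so the controls too carried a single working gastrin allele, and their background was 95% black6 and 5% 129Sv. All were fed Peptamen, a peptide-based liquid diet, from the age of 10 days. The CFTR-/- genotype is not limited to acinar cells by any label, and values are those of mixed tissue with duct, islet, stromal and immune cells.

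Replicates 1, 2 and 3 of each group carry the same title suffix across groups (none, B and P), and same-suffix arrays were treated as pairs when values are given pair by pair. The label of control replicate 1 alone names the entire pancreas. Array medians lay between 207.8 and 234.4. The 3 Cftr probe sets gave no check of the labels: 1 was bright enough to test, with controls at 318, 223 and 338.5 against CF arrays at 466.9, 313.8 and 364.2 (adjusted p = 0.82, limma), and the others stayed below 47.6 on every array. No source used here places them inside or outside the altered part of the gene. Of 11 tested acinar marker genes, 10 were lower and 1 was higher in CF and 0 passed the threshold. Their mean log2 intensity was 15.85 to 16.28 in controls and 15.79 to 16.02 in CF, so the tissue read as acinar in both groups.

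Intensities under 47.6, the 20th percentile of all values, were raised to it before log2 was taken, and a probe set was tested when at least 3 of the 6 arrays exceeded 140.2, the 40th percentile. Of the 12 member probe sets, 9 passed this filter, for 6 genes, and 3 were too dim: 2 of the 3 probe sets of Stx3 and the only one of Snap23. With limma's moderated test, adjusted by Benjamini-Hochberg over all 7739 tested probe sets, 0 of the 9 reached an adjusted p under 0.05, against 0.0646% of all tested probe sets (5 of them, all higher in CF). At an unadjusted p under 0.05, 571 of all tested probe sets (7.38%) passed and again 0 of the 9. Adjusted p-values of the 9 ran from 0.68 to 0.95, and from 0.29 to 0.87 with the suffix as a replicate block.

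**Figure D1:**
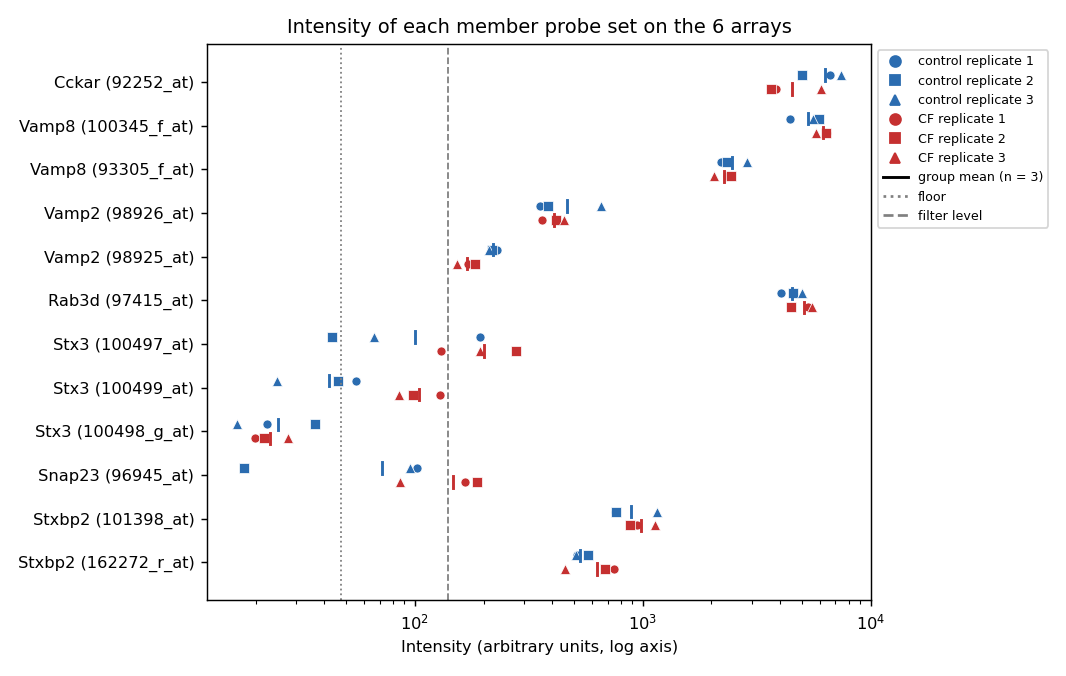
Intensity (log axis, arbitrary units) of each of the 12 member probe sets on the 3 control and 3 CF arrays; symbols mark the replicate, short bars the group mean, and the dotted and dashed lines the floor (47.6) and the filter level (140.2). Groups part completely for the dimmer Vamp2 probe set, where CF is lower, and for the Stx3 probe set 100499_at, which lies under the filter level on every array.

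Among the receptors, Cckar was lower in CF in each of the 3 pairs, but its groups overlapped and the difference did not pass the test. Cckar encodes the type A cholecystokinin receptor, through which the hormone stimulates enzyme secretion in rodents. Its probe set, 92252_at, measured 6598.6, 4970 and 7405.7 on the control arrays and 3822.6, 3641.1 and 6050.3 on the CF arrays, in the order of replicates 1 to 3 that is kept throughout. The first 2 CF arrays lay below all controls, while CF replicate 3 exceeded control replicate 2; in both groups replicate 3 was the highest and replicate 2 the lowest.

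The group means of Cckar were 6325 ± 1241 in controls and 4505 ± 1342 in CF (SD, n = 3 each). The log2 difference was -0.51 ± 0.23 (SE; 95% interval -1.04 to 0.02; limma adjusted p = 0.68), a level in CF of 0.70 times that of controls. Within pairs 1, 2 and 3 the log2 difference was -0.79, -0.45 and -0.29. With the suffix as a replicate block, the SE narrowed to 0.13 and the interval to -0.84 to -0.18, which leaves out 0. The unadjusted limma p was 0.0084, and after adjustment over all probe sets it was 0.29 and not past the threshold. With this block, 908 of the 7739 tested probe sets had an unadjusted p under 0.05. An interval that leaves out 0 is therefore no result by itself. Of all tested probe sets, 17.4% were lower in CF in all 3 pairs, so the sign alone does not set Cckar apart. The log2 difference was -0.74 without CF replicate 3 and -0.38 without CF replicate 2. Acinar markers differed less, with a median log2 difference of -0.17. Most of them were far brighter than Cckar, up to Ctrb1 at 96439.7 to 135426.3 in controls, the highest values of those arrays. Whether differences compare across such unlike intensities was not tested. Fewer cells that express a gene and less of its RNA per cell cannot be told apart in mixed tissue.

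The genes whose values over the 6 arrays followed Cckar most closely were Lxn (Pearson r = 0.995), which encodes the carboxypeptidase inhibitor latexin, Scp2 (0.991), which encodes a sterol carrier protein, and Vamp3 (0.986), which encodes a widely expressed vesicle SNARE. These were the top 3 of 5803 other tested genes, of which 117 had an r above 0.9; the 6 points share their arrays and 2 groups, and the r is a description. Vamp3 measured 379.5, 332.9 and 462 in controls and 233.4, 230.3 and 367.9 in CF, with the same order of arrays within each group as Cckar.

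Of the other receptors listed for acinar cells or the nerves around them, 12 of 13 genes had a probe set, 5 were bright enough to test, and 0 passed in either direction or had an unadjusted p under 0.05 in limma. The median log2 difference of the 5 was 0.11, with 4 above 0, beside a median of 0.00 and 50.1% above 0 over all tested probe sets. Cckbr, the receptor for gastrin and cholecystokinin, measured 1595, 1790.5 and 1212.3 in controls and 2027.4, 1704.5 and 1268.4 in CF (log2 difference 0.11 ± 0.23, adjusted p = 0.95, limma). The groups overlapped, with CF replicate 1 above every control and control replicate 3 below every CF array. Vipr1, a receptor for vasoactive intestinal peptide that acts through cyclic AMP, differed by -0.03 ± 0.22 on the log2 scale, and the muscarinic receptor gene Chrm1 by 0.14 ± 0.56. The somatostatin receptor gene Sstr2 differed by 0.42 ± 0.54 on its brightest probe set and by -0.28 ± 0.31 and -0.06 ± 0.34 on the others, and the neurotensin receptor gene Ntsr2 by 0.02 ± 0.72.

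Vamp8 encodes the VAMP that is the main one on mouse zymogen granules. Both of its probe sets end in _f_at, which marks probes shared within a sequence family, so they may read relatives. The first, 100345_f_at, measured 4440.9, 5959 and 5598.4 in controls and 6457.4, 6349.4 and 5748 in CF. CF was higher in each pair, and CF replicate 3 lay inside the control range. The second, 93305_f_at, measured 2208.3, 2337.6 and 2868.3 in controls and 2333.5, 2426.9 and 2059.4 in CF, with CF replicate 3 the lowest of all arrays.

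The differences of the 2 Vamp8 probe sets were opposite in sign, and both 95% intervals include 0. The log2 difference was 0.22 ± 0.16 for the first (95% interval -0.13 to 0.58; adjusted p = 0.81, limma) and -0.11 ± 0.17 for the second (-0.49 to 0.26; adjusted p = 0.92). Neither interval reaches 1 or -1, so a doubling or a halving of the signal lies outside both. The first was higher in CF in all 3 pairs, as were 17.8% of all tested probe sets, and most of its mean came from pair 1 (0.54, against 0.09 and 0.04). Across the 6 arrays the 2 probe sets had an r of 0.17. The genes closest to the first in pattern were Skiv2l (r = 0.979), which encodes a helicase of RNA decay, Ptpn13 (0.978), a tyrosine phosphatase gene, and Parp6 (0.975), of the poly(ADP-ribose) polymerase family; 48 of 5803 genes had an r above 0.9.

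Vamp2, or synaptobrevin 2, is the classical VAMP of synaptic vesicles and is also found on zymogen granules and on islet hormone granules. Its brighter probe set, 98926_at, measured 354, 384.7 and 654.8 in controls and 361.1, 417.5 and 450.5 in CF. Control replicate 3 stood above all other arrays, and the groups overlapped. The log2 difference was -0.13 ± 0.29 (95% interval -0.79 to 0.53; adjusted p = 0.95, limma), and it turned to 0.14 without control replicate 3.

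The dimmer Vamp2 probe set, 98925_at, was the only one of the 9 with no overlap between groups. It measured 229.6, 217.6 and 211.8 in controls and 171.4, 182.8 and 152.4 in CF, so every CF array lay below every control array. The group means were 220 ± 9 and 169 ± 15. The log2 difference was -0.38 ± 0.33 (95% interval -1.13 to 0.36; adjusted p = 0.84), with -0.42, -0.25 and -0.47 within the pairs. Its SE is wide beside the spread of its own arrays, since limma draws the variance of each probe set towards that of others of like intensity. Of all tested probe sets, 5.62% lay below controls with no overlap and 7.37% above, beside 1 and 0 of the 9 members, and a single probe set against those shares is no result about the members. Across the arrays the 2 Vamp2 probe sets had an r of 0.02.

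Markers of the other cells that use Vamp2 were measured beside it. The mean log2 intensity of 11 islet genes was 8.63 to 9.79 in controls and 8.99 to 9.23 in CF, and that of 7 neural and glial genes was 8.42 to 8.95 and 8.64 to 8.80. Both ranges overlap between the groups. Of the defining genes, Ins2 read 16744.1 to 69134.6 over the controls and 18824 to 53156.3 over the CF arrays. Nefm, a neurofilament gene, stayed below the floor on every array. Of 11 neural and glial genes with a probe set, 7 were bright enough to test, and Nefm, Nefl, Prph and S100b were too dim. Mbp, Gfap, Sox10, Stmn2 and Tubb3 exceeded the filter level of 140.2 on every array, while Uchl1 and Gap43 did not. The lowest values of Stmn2 and Tubb3 were 355.8 and 336.3, and the Tubb3 probe set ends in _f_at, so it may read relatives. The list was thus mixed, and whether neural RNA was present was not tested. The part of these cells in the Vamp2 values was not tested.

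**Figure D2:**
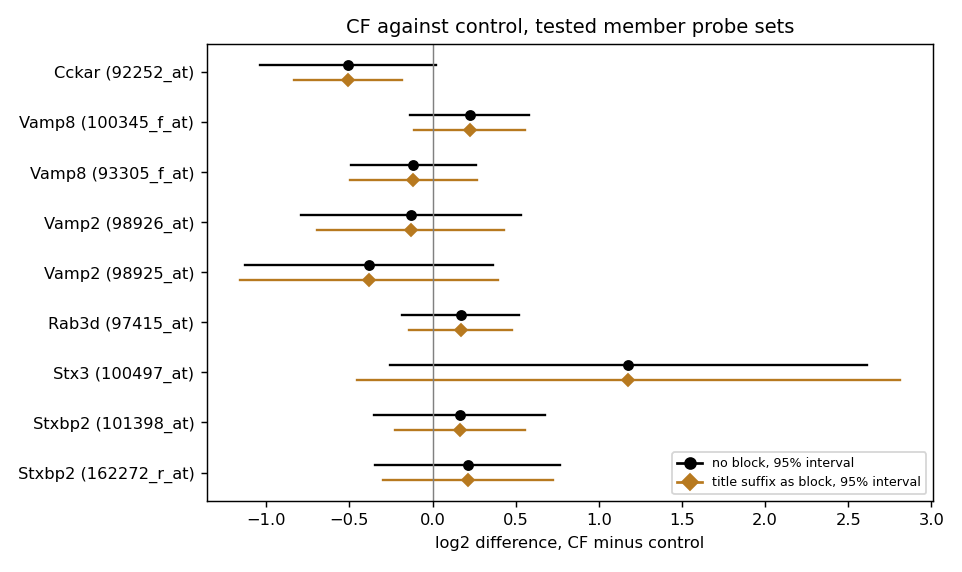
Log2 difference between CF and control (x axis) for the 9 tested member probe sets, with 95% intervals from limma without a block (circles) and with the title suffix as a block (diamonds). Every unblocked interval includes 0. With the block, the Cckar interval alone, -0.84 to -0.18, does not, and its adjusted p is 0.29 (limma). With the block, 908 of all 7739 tested probe sets had an unadjusted p under 0.05.

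Rab3d encodes the Rab3 protein of zymogen granules, whose loss enlarges secretory granules in mice. Its probe set measured 4047.6, 4547.1 and 4987.3 in controls and 5310.7, 4452.8 and 5509.8 in CF. Both CF replicates 1 and 3 exceeded all controls, and CF replicate 2 lay inside the control range. The means were 4527 ± 470 and 5091 ± 562, and the log2 difference was 0.17 ± 0.15 (95% interval -0.18 to 0.52; adjusted p = 0.86, limma). Its upper bound is 1.43 times the control level and its lower bound 0.88 times. Within the pairs it was 0.39, -0.03 and 0.14.

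Stx3 encodes syntaxin 3, which in rat acinar cells is found on zymogen granules. Its 3 probe sets were all dim and did not behave alike. The one tested, 100497_at, measured 192.6, 43.1 and 66 in controls and 130.1, 277.8 and 193.6 in CF. It passed the filter through CF replicates 2 and 3 and control replicate 1, which were the 3 highest values. Its log2 difference was 1.18 ± 0.63 (95% interval -0.26 to 2.61; adjusted p = 0.73, limma), but -0.57, 2.55 and 1.55 within the pairs, and 0.33 with the floor at the 40th percentile.

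The second Stx3 probe set, 100499_at, measured 55.1, 45.9 and 24.8 in controls and 128.9, 98.3 and 84.8 in CF. Every CF array lay above every control array, but no array reached 140.2 and 2 controls lay under the floor of 47.6, so it was not tested. The third, 100498_g_at, lay under the floor on all 6 arrays, between 16.6 and 36.3. Of the 3 probe sets, 1 thus gave separated groups, 1 overlapping groups and 1 no level above the floor. Among tested probe sets 7.37% lay above controls with no overlap, and no such share was taken for dim ones. The separation of 1 dim probe set is no result about Stx3.

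Snap23 encodes the SNAP protein that pairs with syntaxins outside neurons. Its single probe set was also too dim to test, measuring 102.2, 17.7 and 95 in controls and 166.4, 187.8 and 86.4 in CF. Both CF replicates 1 and 2 exceeded all controls, and CF replicate 3 lay inside the control range. Since 1 control value was under the floor and 2 of 6 values exceeded the filter level, these are given as values.

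Stxbp2 encodes Munc18b, a protein that binds syntaxins and guides SNARE assembly in epithelial and blood cells. Its brighter probe set, 101398_at, measured 752.8, 766 and 1153.2 in controls and 940.4, 882.8 and 1128.2 in CF, with replicate 3 the highest in both groups. Its other probe set, 162272_r_at, measured 512.5, 572 and 508.3 in controls and 745.8, 680 and 456 in CF, with CF replicate 3 the lowest of all. Log2 differences were 0.16 ± 0.23 (95% interval -0.35 to 0.68; adjusted p = 0.92, limma) and 0.21 ± 0.24 (-0.34 to 0.77; adjusted p = 0.90). Both were positive in pairs 1 and 2 and negative in pair 3, though over the 6 arrays the 2 probe sets had an r of -0.30.

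**Figure D3:**
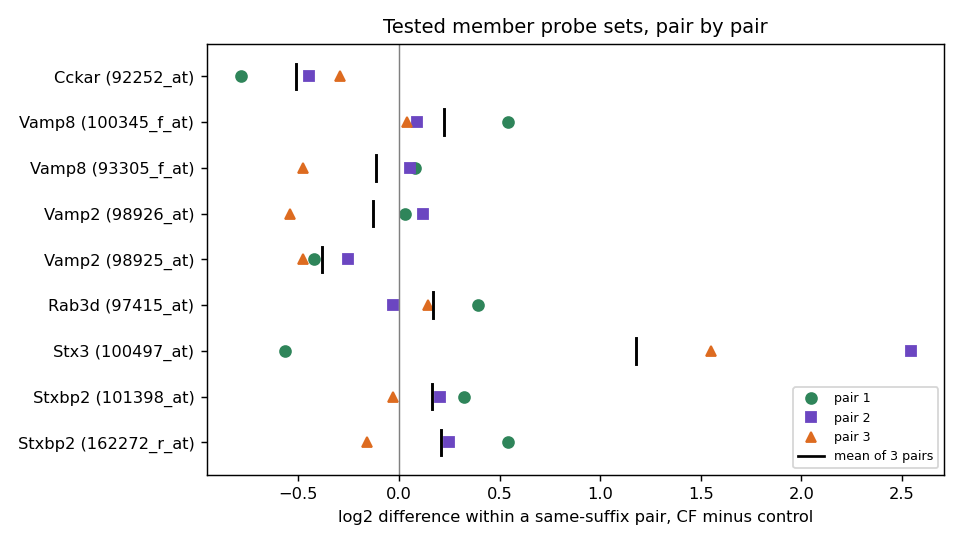
Log2 difference of CF from control within each same-suffix pair (x axis; symbols mark pairs 1 to 3) for the 9 tested member probe sets, with the mean of the 3 pairs as a bar. All pairs lie below 0 for Cckar and the Vamp2 probe set 98925_at and above 0 for the Vamp8 probe set 100345_f_at; the other 6 have pairs on both sides.

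Among the tested members, 4 probe sets were lower and 5 higher in CF, with a median log2 difference of 0.16, beside 0.00 over all tested probe sets. Signs in the 3 pairs were alike for 2 lower members (17.4% of all tested probe sets were lower in all pairs) and 1 higher member (17.8%). The 9 are not independent, since Vamp8, Vamp2 and Stxbp2 each count 2 probe sets.

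The messengers between receptors and fusion were described with a list of 55 other genes of calcium and cyclic AMP signalling, of which 42 had a probe set and 31 were tested. None passed in either direction (0 of 31; lowest adjusted p = 0.52, limma) and 5 had an unadjusted p under 0.05, beside 7.38% of all tested probe sets. Of the 31, 20 were lower and 11 higher in CF, with a median log2 difference of -0.18. In 5 of them CF lay below controls with no overlap and in 1 above, beside 5.62% and 7.37% of all tested probe sets. Gna11 is in this count of 5 and in that at an unadjusted p under 0.05. It passed the filter through its 3 control arrays alone, so a lower level in CF was built into its being tested. Gnas, which encodes the stimulatory G protein that couples the secretin receptor to adenylyl cyclase, measured 13587.2, 12347.3 and 15469.4 in controls and 7150.8, 8382.5 and 11923.1 in CF (log2 difference -0.62 ± 0.20, adjusted p = 0.52). All CF arrays were below all controls on this brightest Gnas probe set, whereas a much dimmer one differed by 0.15 ± 0.39.

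The adenylyl cyclase gene Adcy6 pointed the other way, measuring 802.6, 615.2 and 879.9 in controls and 971.3, 1253.4 and 1383.6 in CF (log2 difference 0.65 ± 0.22, adjusted p = 0.54, limma), with every CF array above every control. Gna11, which encodes a G protein alpha subunit that activates phospholipase C, measured 142, 363.5 and 173.7 in controls and 57.5, 97.3 and 118.9 in CF (-1.25 ± 0.54, adjusted p = 0.67), and its second probe set was too dim to test. Its tested probe set, as given above, passed the filter through the 3 controls alone. Marcks, a substrate of protein kinase C, differed by -1.04 ± 0.42. Tpd52, known in acinar cells as a phosphoprotein that responds to calcium, differed by 0.46 ± 0.20 on its brighter probe set and by -0.02 ± 0.23 on the other.

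The third list held 75 other SNARE, Rab and docking genes, of which 50 had a probe set and 35 were tested, and 0 passed in either direction (lowest adjusted p = 0.52, limma), with 2 at an unadjusted p under 0.05, beside 7.38% of all tested probe sets. Of these, 17 were higher and 18 lower in CF, with a median log2 difference of 0.00. CF lay below controls with no overlap in 2 of them and above in 2, beside 5.62% and 7.37% of all tested probe sets. Rab8b, a small GTPase of membrane traffic, measured 283.5, 192.5 and 262.5 in controls and 128, 82.8 and 103.6 in CF (log2 difference -1.24 ± 0.40, adjusted p = 0.52), with all CF arrays below all controls. Rab8b passed the filter through its 3 control arrays alone, so a lower level in CF was built into its being tested.

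Napa encodes alpha-SNAP, the adaptor through which NSF takes SNARE complexes apart after fusion. It measured 1873.1, 1848.9 and 2878.2 in controls and 1260.7, 1156.6 and 1844 in CF (log2 difference -0.63 ± 0.25, adjusted p = 0.65, limma), again with every CF array below every control, though CF replicate 3 lay just under control replicate 2. Nsf itself, which lies outside the rule for named genes and was chosen after its value was seen, differed by 0.02 ± 0.29. Vamp3, given above beside Cckar, differed by -0.52 ± 0.30. The syntaxin gene Stx18, of the endoplasmic reticulum, differed by 0.36 ± 0.24, and Dnajc5, which encodes the vesicle chaperone cysteine string protein, by 0.35 ± 0.25 with no overlap.

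**Figure D4:**
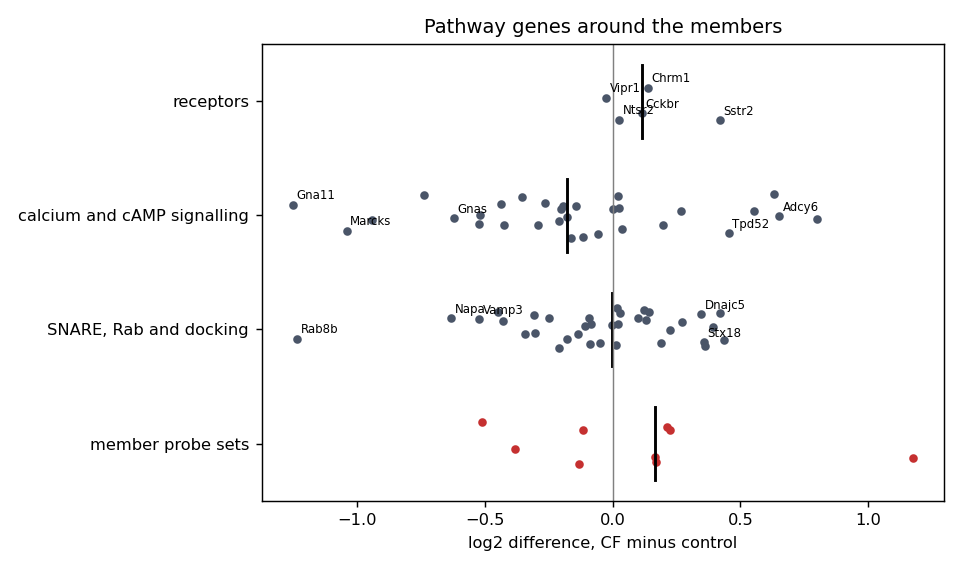
Log2 difference of CF from control (x axis) for the tested genes of the receptor, signalling and SNARE, Rab and docking lists, 1 dot per gene on its brightest tested probe set, above the 9 member probe sets; bars mark medians and dots are spread vertically for legibility. Medians are 0.11, -0.18 and 0.00 for the lists and 0.16 for the members, and no dot passed the threshold.

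Marker genes of other cell types were set beside these values. The mean log2 intensity of 8 tested duct markers was 9.37 to 9.54 in controls and 9.91 to 9.99 in CF, with no overlap and 7 of 8 higher. The duct genes were not alike. Cldn4, Elf3, Epcam and Krt18 differed by 1.58, 0.92, 0.66 and 0.62 on the log2 scale. Muc1 differed by 0.13, Krt8 and Krt19 by 0.04 each, and Car2 by -0.09. The mean log2 intensity of 4 smooth muscle genes (3 lower) was 8.61 to 9.41 in controls and 8.21 to 8.29 in CF. Among these, Acta2 differed by -2.82 and passed the filter through its control arrays alone. A lower level in CF was thus built into its being tested. Actg2, Tagln and Des differed by -0.14, -0.31 and 0.36. For 5 adipocyte genes (5 lower) the mean log2 intensity was 8.84 to 11.15 in controls and 8.23 to 9.40 in CF. Control and CF ranges were 9.15 to 9.79 and 8.32 to 9.39 for 7 lymphocyte genes (7 lower), 8.34 to 9.61 and 8.11 to 8.95 for 7 myeloid genes (6 lower), and 10.05 to 10.77 and 9.75 to 10.19 for 8 fibroblast and stellate genes (7 lower). For 6 endothelial genes (5 lower) the means were 8.14 and 7.87. In limma 0 of these 45 genes passed the threshold and 13 had an unadjusted p under 0.05, beside 7.38% of all tested probe sets. Their part in the values of the members was not tested.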

How the data were processed

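The authors deposited 1 intensity per probe set and array on a linear scale. The software and steps behind it are not stated in the sources used here. Total RNA was extracted with TRIzol, per the labels. Means after trimming 2% at each end were 500.27 to 500.3 on all arrays, so the deposited scaling was kept; there were no detection calls. Of 12488 probe sets, the platform annotation names 1 gene for 10855, several for 396 and none for 1237; 10839 matched RefSeq gene names of GRCm38.p6. The 66 control probe sets were left out.

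Floored log2 values were fitted in limma 3.58.1 (R 4.3.3) with an intensity trend, for CF against control over all 7739 tested probe sets. The threshold was an adjusted p of 0.05, and the fit was tested on simulated data with spreads shuffled among probe sets. There it called 23.1% of log2 differences of size 1, 72.6% of size 2 and 92% of size 4. Of unchanged probe sets it called 0.101%. A member that was not called is therefore not shown to be unchanged. The rates average over shuffled spreads, unlinked from intensity, and are not those of a given member. Deviations from group means correlated at 0.23 to 0.26 between same-suffix arrays and at -0.18 to -0.05 between others. Such deviations cancel within a group, so the second range follows in part from the first. The pairing rests on the titles and on these same values.

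The members and lists were chosen with earlier results of these data known. Each list was described with 1 probe set per gene, the brightest tested. Named genes were all members, up to 5 genes of smallest p per list and the 3 genes most correlated with Cckar and with Vamp8. Each array is 1 mouse, so p-values reflect animal-to-animal spread together with measurement error, and 3 arrays per group limit the precision. Alternatives changed the scaling, floor, filter, variance model, weights and block, or left out each array.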

Additional observations from a re-analysis of the deposited data

Results flagged for a closer look

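The Stx3 probe set 100499_at, left out of the test as too dim, averaged 104 in CF and 41.9 in controls, and its lowest CF value (84.8) lay above its highest control value (55.1). It drew attention as a signal in data that the comparison did not use. Only untested members higher in CF were looked for. Of tested probe sets, 7.37% were above controls with no overlap, and the share among untested ones was not taken. The difference was not tested, and the other Stx3 probe sets overlapped between the groups.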

How the results depend on the processing

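None of the 9 tested member probe sets was called under any of the 15 alternatives that could test it (0 calls each), and 132 of 133 member values kept their sign. The exception was the brighter Vamp2 probe set, 98926_at, whose log2 difference ran from -0.30 without control replicate 1 to 0.14 without control replicate 3. A filter at the 60th percentile removed the Stx3 probe set 100497_at and the Vamp2 probe set 98925_at. The Stx3 difference ranged from 0.33 (floor at the 40th percentile) to 1.77 (without control replicate 1), and that of Cckar from -0.74 to -0.38. The lowest adjusted p of any member was 0.29, for Cckar with the replicate block, which changed no call. Over all probe sets, 5 were called; the count was 10 with the replicate block, 10 with the floor at the 40th percentile, 12 with array weights, 3 without an intensity trend, 0 with no filter (773 at an unadjusted p under 0.05 in limma), and 1 to 11 when single arrays were left out (1 without CF replicate 1 or 2, 11 without control replicate 2); the cause was not tested. Signal near the floor limits Stx3 and Snap23.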
